A study of Mus musculus with 6 samples.

Results

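The genes described here are the tumour necrosis factor (TNF) ligands, their receptors and the proteins that carry their signal to the transcription factor NF-κB. They were taken by symbol: every gene whose symbol begins with Tnfrsf, Tnfsf, Nfkb or Traf followed by a digit, and 16 further symbols of the same pathway, of which 15 were measured. This gave 58 of the 17097 genes on the array, read by 98 of 45037 probe sets. RNA came from 3 Klf3-/- and 3 WT mice, 1 array per mouse. All were untreated FVB/NJ males aged 12 weeks and kept at 22 °C on standard chow, and Klf3, which encodes a transcriptional repressor, was disrupted in every tissue of the Klf3-/- animals, so a difference need not arise in the sorted cells themselves. Sorting from the SVF of inguinal subcut AT took live CD45+ cells of high side scatter that carried CD11b, F4/80 and Siglec-F, the gate for eosinophils, and their RNA was read on Affymetrix HT MG-430PM arrays.

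Trimeric TNF family ligands cluster their receptors, which recruit TRAF adaptors and the ubiquitin ligases Birc2 and Birc3 to their cytoplasmic tails. The IKK complex then phosphorylates the IκB proteins that hold Rel dimers in the cytoplasm, and the freed dimers enter the nucleus. Several of the genes they switch on encode brakes on the same route, among them the IκB protein Nfkbia and the deubiquitinase Tnfaip3. In adipose tissue the pathway is known chiefly for the TNF made by its macrophages in obesity, and in B cells the receptors for BAFF sustain survival through it.

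The promoters bear on 1 grouping used further on, so the stretches that define it are shown first. For 46 of the 58 genes a RefSeq promoter window of 300 bases (250 before and 50 after the start site, build GRCm38.p6) was at hand, and the other 12 had none in the table. The kappa-B consensus, the 10-base site of NF-κB dimers, was searched on both strands and may overlap itself. A match stood in 12 of 60 member windows (20%), against 2779 of 32851 windows of all genes (8.46%), and belonged to 10 genes. The inhibitors and regulators whose values follow are represented by Tnfaip2 (chr12:111442607-111442676, plus strand), Nfkbie (chr17:45555564-45555633, plus strand), Nfkbia (chr12:55492637-55492706, minus strand) and Tnfaip3 (chr10:19015383-19015565, minus strand). The Rel subunits are represented by Nfkb2 (chr19:46304668-46304765, plus strand) and Rel (chr11:23771021-23771091, minus strand). Each runs 5′ to 3′ in the direction of transcription with 30 bases on either side, and capitals mark the bases that matched on either strand.
Tnfaip2: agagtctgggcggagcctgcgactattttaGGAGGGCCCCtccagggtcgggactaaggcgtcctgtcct
Nfkbie: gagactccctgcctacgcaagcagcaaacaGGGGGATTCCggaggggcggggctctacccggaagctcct
Nfkbia: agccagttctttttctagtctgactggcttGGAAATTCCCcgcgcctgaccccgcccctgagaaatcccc
Tnfaip3: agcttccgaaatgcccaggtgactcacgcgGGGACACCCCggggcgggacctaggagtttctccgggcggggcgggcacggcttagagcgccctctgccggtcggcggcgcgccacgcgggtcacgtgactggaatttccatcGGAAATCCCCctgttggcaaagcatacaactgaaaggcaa
Nfkb2: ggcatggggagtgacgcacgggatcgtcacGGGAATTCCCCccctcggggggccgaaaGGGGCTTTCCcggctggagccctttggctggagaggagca
Rel: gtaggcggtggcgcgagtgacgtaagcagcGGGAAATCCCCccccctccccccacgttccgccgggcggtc

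The first matched base lay 24 bases upstream of the start site in Tnfaip2, 29 in Nfkbia, 106 in Nfkbie, 125 and 12 in Tnfaip3, 39, 38 and 11 in Nfkb2, and 92 and 91 in Rel. Overlapping matches in Nfkb2 and Rel, offset by 1 base, run together in the capitals. A box of the kind bound by KLF proteins, CCACACCC, was searched on both strands in the same way and matched 2 of 60 member windows (3.33%), against 3.56% of all windows. The members were Ikbkg and Traf5 (chr1:192092593-192092660, minus strand), and the Traf5 stretch is shown because this gene had the smallest p of all 58.
Traf5: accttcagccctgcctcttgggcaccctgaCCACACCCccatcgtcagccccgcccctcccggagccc
A match shows only that these letters are in the window, and no binding was measured on the arrays.

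Facts of the whole table that touch these genes are few. The deposited intensities were on no common scale, with array medians 1.94-fold apart, so log2 values were quantile-normalised between arrays, and every level below is such a log2 value unless it is called deposited. Background was put at 5.1, the level under which 95% of 44 olfactory receptor probe sets lay. Of the eosinophil markers, 2 of 9 lay above that level, and Siglecf, which encodes the sort marker, read 4.28, 4.11 and 4.07 in Klf3-/- mice 1 to 3 and 4.81, 4.42 and 4.51 in WT mice 1 to 3. The labelled cell type was thus not borne out by its markers, and the samples are called sorted cells. All 13 macrophage, 9 dendritic cell and MHC class II, 6 B cell, 9 T and NK cell and 11 stromal markers measured lay above the level. In bulk RNA fewer cells of a type and less RNA per cell cannot be told apart. Klf3 was read by 6 probe sets, 5 of them higher and 1 lower on all Klf3-/- arrays, and their place relative to the disruption is not known here, so they did not check the genotype labels.

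None of the 58 genes passed an adjusted p of 0.05 in limma, and neither did any of the 45037 probe sets (0.0% called, smallest adjusted p = 0.124). Before adjustment 4 genes were lower and 0 higher in Klf3-/- cells at p under 0.05, and 2475 probe sets of the whole table lay under that p. Of all genes 2.47% were lower and 3.61% higher at that threshold, and of the pathway genes 6.9% were lower. The 4 were the adaptor Traf5, the BAFF receptor Tnfrsf13c, the death receptor Tnfrsf21 and the TNF-induced Tnfaip2, with log2 fold changes of −0.72 to −0.85. Arrays of the same replicate number were also taken as pairs, a choice made partly from correlations in these same data. No sample title ties a Klf3-/- number to a WT number, so every block p and pair count below rests on that choice. With the replicate number as a block, 7 were lower (12.1%) and 1 higher, where 3.5% of all genes were lower and 4.45% higher. The 3 that joined the lower side were Nfkbie, Birc2 and Birc3, and the higher gene was Tnfrsf17, which lay below background.

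Of the 58 genes 37 were lower in Klf3-/- cells (63.8%), against 55.2% of all genes. The median log2 fold change, Klf3-/- over WT, was −0.24 over the pathway genes and −0.04 over all genes, and single values lay between −0.85 and 0.82. Without WT mouse 2 the median was −0.09, and without Klf3-/- mouse 2 it was −0.13. On the values as deposited 29 were lower (50%) with a median of −0.01, where all genes had 30.5% lower and a median of 0.13. Relative to all genes the pathway genes lay 0.2 log2 units lower after normalisation and 0.14 lower as deposited. In the pairs taken by replicate number 18 genes were lower in all 3 (31.0%) against 18.8% of all genes, and 4 were higher in all 3 (6.9%) against 11.8%.

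**Figure D1:**
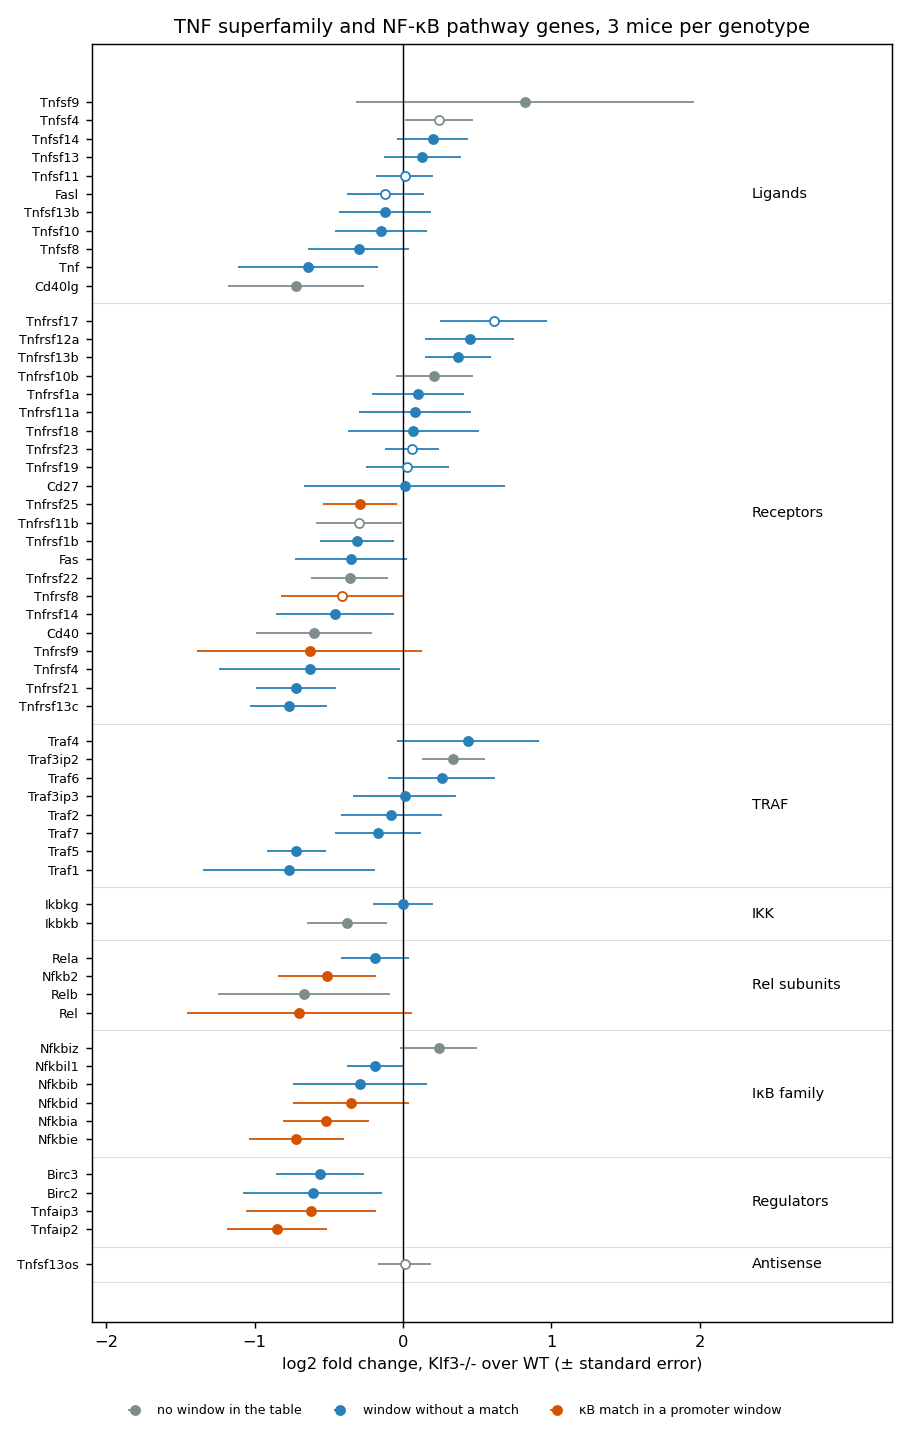
Log2 fold change, Klf3-/- over WT, of all 58 genes by role, with the standard error from limma (3 arrays per genotype). Filled points lay above background and open points below, orange marks a kappa-B match in a promoter window, and all 4 regulators and all 10 orange genes sit left of 0.

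The ligands did not run one way. Of 11, 6 were lower and 5 higher in Klf3-/- cells, with a median log2 fold change of −0.12, and 0 lay under p 0.05. Tnf, the founding ligand, read 5.72, 5.59 and 5.45 in Klf3-/- mice 1 to 3 and 5.94, 7.36 and 5.40 in WT mice 1 to 3. WT mouse 2 stood alone and the other 5 arrays lay between 5.40 and 5.94, with a fold change of −0.64 (SE 0.47, unadjusted p = 0.21), or −0.08 without WT mouse 2. Cd40lg, the T cell ligand of Cd40, read 6.76, 6.47 and 5.07 in Klf3-/- cells and 7.09, 6.33 and 7.03 in WT cells (−0.72, SE 0.46). The low array was Klf3-/- mouse 3, without which the fold change was −0.20. That array also had the lowest T and NK marker mean, at 7.02 log2 units, where the 6 arrays spanned 7.02 to 8.48. WT mouse 2 was nearly as low in that mean, at 7.20, and read 6.33 for Cd40lg. The part of those cells in the Cd40lg value was not tested. The BAFF ligand Tnfsf13b (−0.12), the related Tnfsf13, which encodes APRIL (0.13), Tnfsf14, which encodes LIGHT (0.20), and the Cd30 ligand Tnfsf8 (−0.30) differed by less than their standard errors. Tnfsf9, the ligand of the costimulatory receptor 4-1BB, is named after its values were seen, since its 6 arrays spanned the widest range of all 58 genes, 5.1 log2 units. It read 7.68, 7.47 and 6.57 in Klf3-/- cells, and 6.57, 8.90 and 3.80 in WT cells, so the WT mice alone covered the whole range.

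Among the receptors 12 of 22 were lower and 10 higher, with a median of −0.30. Tnfrsf13c, the BAFF receptor of B cells, read 8.70, 8.09 and 7.96 in Klf3-/- mice 1 to 3 and 8.71, 9.11 and 9.23 in WT mice 1 to 3. The genotypes did not overlap, yet the mice numbered 1 were nearly equal. The log2 fold change was −0.77 (SE 0.26, unadjusted p = 0.0217, adjusted p = 0.868). B cell markers averaged 8.68, 7.47 and 7.63 in Klf3-/- cells and 8.36, 7.99 and 8.46 in WT cells, and their summed linear intensity was 1213 to 2613 in Klf3-/- cells and 1656 to 2562 in WT cells. The B cell share in the Tnfrsf13c value was not tested. Tnfrsf13b, a second receptor for BAFF, went the other way, at 7.11, 7.11 and 6.99 in Klf3-/- cells and 6.31, 6.92 and 6.86 in WT cells. It was the 1 gene of the 58 with every Klf3-/- array above every WT array (6.99 against 6.92 at the closest), and its fold change of 0.37 (SE 0.22) had an unadjusted p of 0.133, or was 0.18 without WT mouse 1. Tnfrsf17, the APRIL receptor of plasma cells, had 4.76, 5.18 and 5.56 in Klf3-/- cells and 3.85, 4.78 and 5.04 in WT cells, below background on 4 of 6 arrays. Its fold change of 0.61 had an unadjusted p of 0.13, or 0.026 with the replicate block. Its mean lay above background only in Klf3-/- cells (5.17, against 4.56 in WT cells). The gene was named through that group, so neither p is support for a difference.

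Tnfrsf21, also known as death receptor 6, read 7.92, 7.42 and 8.24 in Klf3-/- mice 1 to 3 and 8.85, 8.30 and 8.58 in WT mice 1 to 3. All Klf3-/- arrays lay below all WT arrays and each pair differed in that direction. The fold change was −0.72 (SE 0.27, unadjusted p = 0.0316, adjusted p = 0.868). A second probe set above background had the same sign (−0.64, SE 0.33, unadjusted p = 0.0977 in limma). Its genotypes overlapped, with 8.37 in Klf3-/- mouse 3 against 7.94 in WT mouse 2. Non-overlap of this kind was seen in 3 of the 58 genes on the lower side (Traf5, Tnfrsf13c and Tnfrsf21, 5.17%) and in 1 on the higher side (1.72%), against 6.55% and 4.84% of all genes. These shares were below those of the whole table. As deposited, the 1 gene without overlap was Tnfrsf12a, the receptor for TWEAK, which was higher in Klf3-/- cells. Of all 17097 genes 719 were without overlap on the higher side and 54 on the lower side as deposited.

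The receptors for TNF itself showed no common direction. Tnfrsf1a, which carries a death domain, read 9.29, 8.86 and 9.89 in Klf3-/- cells and 9.39, 8.89 and 9.49 in WT cells (fold change 0.10, SE 0.31), and without Klf3-/- mouse 3 the fold change was −0.18. Tnfrsf1b, which lacks one, read 10.45, 10.04 and 9.96 in Klf3-/- cells and 10.51, 10.78 and 10.11 in WT cells (−0.31, SE 0.25). Both ranges overlapped. Fas, the receptor of Fas ligand, had −0.35 (SE 0.38), with 7.34 in WT mouse 2 as its highest array. Cd40, the costimulatory receptor of B cells, dendritic cells and macrophages, read 9.75, 9.42 and 9.21 in Klf3-/- cells and 9.87, 10.91 and 9.41 in WT cells (−0.60, SE 0.39, unadjusted p = 0.162). All 3 pairs ran the same way, and the difference was widest in pair 2, at −1.49 log2 units. Without WT mouse 2 the fold change was −0.18. Dendritic cell and MHC class II markers averaged 9.37, 9.25 and 9.23 in Klf3-/- cells and 9.62, 10.41 and 9.63 in WT cells, with WT mouse 2 highest there too. Their summed intensity did not overlap (16470 to 21240 in Klf3-/- cells and 21800 to 28210 in WT cells). That linear sum is weighted to the brightest, H2-Aa, Cd74 and H2-Ab1 (means 13.18, 12.48 and 12.00). Singly 3 of the 9 markers did not overlap, Itgax, H2-Eb1 and H2-Aa. Flt3, Zbtb46 and Xcr1 overlapped, and Cd209a was the 1 higher in Klf3-/- cells (0.28). The part of these markers in the Cd40 value was not tested.

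The TRAF genes, taken with the TRAF-interacting Traf3ip2 and Traf3ip3, split evenly, 4 lower and 4 higher, around a median of −0.04. The 4 lower were Traf1, Traf5, Traf7 and Traf2. The 4 higher were Traf4 and Traf6 and both TRAF-interacting genes, so the even split rested on the latter. Traf5, an adaptor of the costimulatory receptors, had the smallest unadjusted p of the 58 genes. It read 7.83, 7.35 and 7.63 in Klf3-/- mice 1 to 3 and 8.26, 8.49 and 8.23 in WT mice 1 to 3, so the closest arrays of the genotypes were 7.83 and 8.23. The fold change was −0.72 (SE 0.20, unadjusted p = 0.00872, adjusted p = 0.849), or 1.65-fold higher in WT cells on the linear scale. Traf1, itself induced by NF-κB, had a similar fold change of −0.77 with a far larger error (SE 0.58). It read 9.27, 9.02 and 7.85 in Klf3-/- cells and 9.30, 10.61 and 8.54 in WT cells, and each genotype spanned over 1 log2 unit. Without WT mouse 2 the fold change of Traf1 was −0.21 and without Klf3-/- mouse 3 it was −0.34, while that of Traf5 lay between −0.84 and −0.59 whichever array was left out. Traf2 (−0.08), the ubiquitin ligase Traf6 (0.26), Traf4 (0.44) and Traf3ip2, the adaptor of the IL-17 receptor (0.34), had overlapping genotypes, and Traf2 was 0.12 as deposited.

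**Figure D2:**
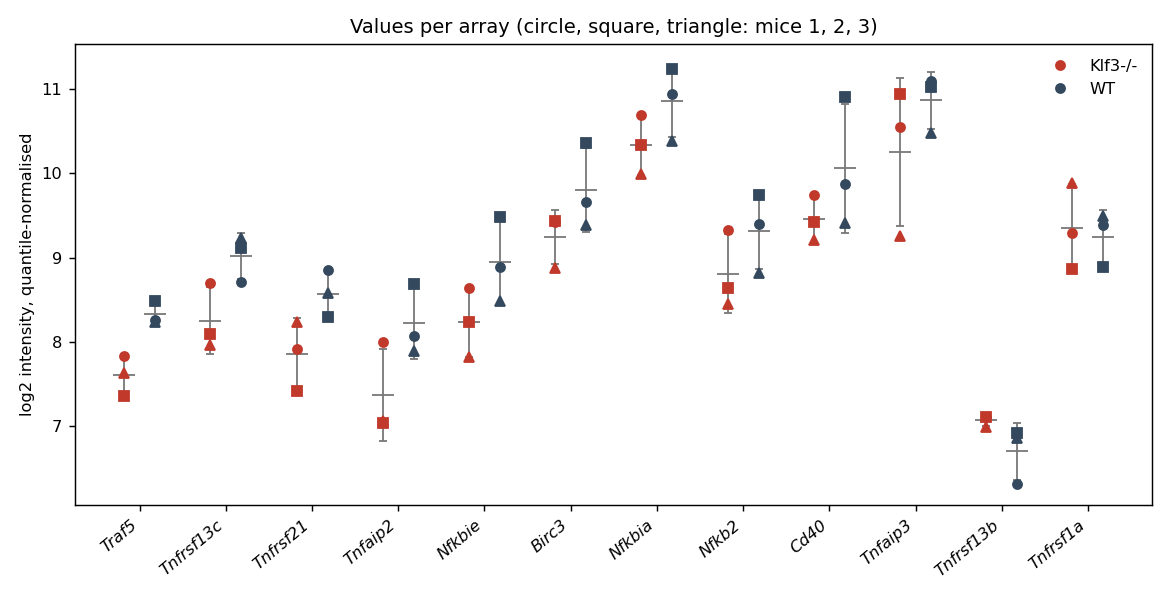
Quantile-normalised log2 intensity of 12 genes on each array, with Klf3-/- in red to the left of WT in blue. Grey marks are the mean and SD of 3 mice; Traf5, Tnfrsf13c and Tnfrsf21 do not overlap on the lower side, and Tnfrsf13b does not on the higher side.

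The kinase complex and the transcription factor lay lower or level. Ikbkb, the catalytic subunit that phosphorylates IκB, read 10.13, 10.70 and 9.79 in Klf3-/- cells and 10.44, 10.84 and 10.48 in WT cells (−0.38, SE 0.27), and its 4 probe sets gave −0.38, −0.43, −0.27 and −0.73. Without Klf3-/- mouse 3 its fold change was −0.17. Ikbkg, the scaffold NEMO, had 0.00 (SE 0.20), and its probe sets ran both ways. All 4 Rel subunits measured were lower in Klf3-/- cells, with a median of −0.59, and none lay under p 0.05. Nfkb2, the precursor of p52 in the non-canonical branch, read 9.33, 8.64 and 8.45 in Klf3-/- cells and 9.40, 9.74 and 8.82 in WT cells (−0.51, SE 0.33). Relb, its partner, read 8.02, 7.95 and 7.18 in Klf3-/- cells and 8.16, 9.69 and 7.29 in WT cells (−0.67, SE 0.58). In both genes all 3 pairs were lower in Klf3-/- cells and pair 2 carried the widest gap. Without WT mouse 2 the fold change of Nfkb2 was −0.30 and that of Relb was −0.01. Rel, the c-Rel subunit of lymphoid and myeloid cells, read 8.54, 8.22 and 5.53 in Klf3-/- cells and 8.10, 8.66 and 7.64 in WT cells. Its −0.70 (SE 0.76) rested on Klf3-/- mouse 3, without which it was 0.24. Rela, the p65 subunit present in most cells, read 8.78, 8.83 and 9.30 in Klf3-/- cells and 9.16, 9.43 and 8.88 in WT cells (−0.19, SE 0.23) and was 0.02 as deposited.

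The genes of the IκB family, not all of them inhibitors of NF-κB, were mostly lower. Of 6 IκB family genes 5 were lower, with a median of −0.32. Nfkbie, the inhibitor IκBε, read 8.64, 8.23 and 7.82 in Klf3-/- mice 1 to 3 and 8.89, 9.48 and 8.49 in WT mice 1 to 3. The genotypes overlapped at one end, 8.64 against 8.49, while the pair differences were −0.25, −1.25 and −0.67 log2 units. Its fold change was −0.72 (SE 0.32) with an unadjusted p of 0.0591, or 0.0329 with the replicate block. Nfkbia, the inhibitor IκBα, read 10.70, 10.34 and 9.99 in Klf3-/- cells and 10.95, 11.24 and 10.39 in WT cells (−0.52, SE 0.29, unadjusted p = 0.0578 with the block). Without WT mouse 2 the fold changes were −0.45 for Nfkbie and −0.33 for Nfkbia. Nfkbil1 had −0.19, or 0.04 as deposited. Nfkbiz, a nuclear IκB protein induced by IL-1 and Toll-like receptor ligands, was the 1 higher gene of this family, at 9.75, 10.26 and 9.81 in Klf3-/- cells and 10.12, 9.56 and 9.43 in WT cells (0.24, SE 0.26).

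All 4 regulators were lower in Klf3-/- cells, in each of the 3 pairs, with a median of −0.62. Tnfaip2, named for its induction by TNF, had the lowest fold change of all 58 genes (−0.85, SE 0.34, unadjusted p = 0.039, adjusted p = 0.888). It read 8.0, 7.04 and 7.06 in Klf3-/- mice 1 to 3 and 8.07, 8.69 and 7.89 in WT mice 1 to 3, and the arrays overlapped through Klf3-/- mouse 1. Tnfaip3, the deubiquitinase A20, read 10.55, 10.94 and 9.26 in Klf3-/- cells and 11.10, 11.03 and 10.48 in WT cells (−0.62, SE 0.44, unadjusted p = 0.197). Without Klf3-/- mouse 3 its fold change was −0.13. The neighbouring genes Birc3 and Birc2 on chromosome 9 encode the ubiquitin ligases cIAP2 and cIAP1. Birc3 read 9.42, 9.44 and 8.88 in Klf3-/- cells and 9.66, 10.36 and 9.39 in WT cells (−0.56, SE 0.30, unadjusted p = 0.0459 with the block). Birc2 read 8.93, 9.86 and 8.35 in Klf3-/- cells and 9.77, 10.28 and 8.93 in WT cells (−0.61, SE 0.47, unadjusted p = 0.0223 with the block). In Birc2 the mice of each genotype spread over more than 1 log2 unit while the pair differences were −0.84, −0.42 and −0.58, and the standard error was 0.19 with the block. Leaving out Klf3-/- mouse 3 gave −0.26 for Birc2, and leaving out WT mouse 2 gave −0.30 for Birc2 and −0.28 for Birc3.

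The 10 genes with a kappa-B match were all lower in Klf3-/- cells, with a median of −0.57. In all 3 pairs 6 of them were lower (60%), against 18.8% of all genes. The 10 are Tnfaip2, Nfkbie, Nfkbia, Nfkb2, Tnfaip3 and Rel, whose promoter stretches are printed above, and Tnfrsf9 (−0.63), Tnfrsf8 (−0.41), Nfkbid (−0.35) and Tnfrsf25 (−0.29). Tnfrsf8 lay below background, with a mean of 4.69. Tnfrsf9, Nfkbid, Tnfrsf25 and Tnfaip3 also had windows without a match, and genes with more windows had more chances to match. Of the 36 genes with a window and no match 21 were lower, with a median of −0.12. As deposited the 10 were again all lower, with a median of −0.39, and the 36 had a median of 0.10. The grouping was chosen after the values were seen and was given no test. Over the whole table a match went with no such difference, since 56.9% of 1591 genes with a match were lower (median −0.05) and 55.0% of 12014 genes without (median −0.04).

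Single mice carried much of this. The 10 genes lay highest in WT mouse 2 in 8 cases and lowest in Klf3-/- mouse 3 in 6. Their median deviation from the gene's own mean was 0.08, −0.26 and −0.67 in Klf3-/- mice 1 to 3 and 0.33, 0.78 and −0.18 in WT mice 1 to 3, so Klf3-/- mouse 1 lay above WT mouse 3. Without Klf3-/- mouse 3 the count was 8 of 10 with a median of −0.33, and without WT mouse 2 it was 9 of 10 with a median of −0.38.

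**Figure D3:**
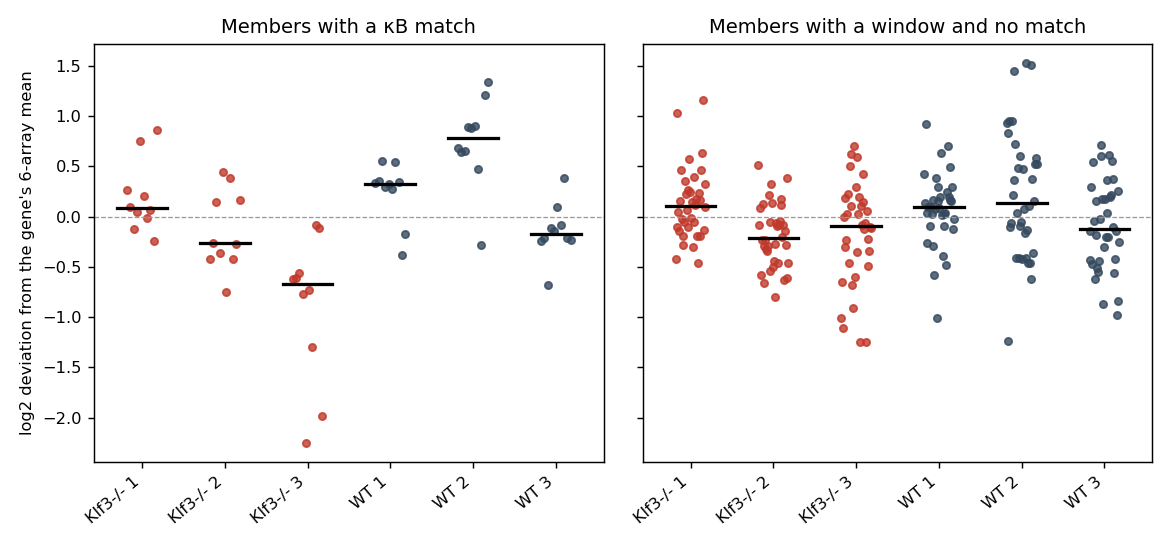
Log2 deviation of each gene from its 6-array mean, for 10 genes with a kappa-B match and 36 with a window and no match, Klf3-/- mice in red and WT mice in blue. Bars are medians; on the left they run from −0.67 in Klf3-/- mouse 3 to 0.78 in WT mouse 2.

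The same mice stood out over the pathway as a whole. Of the 49 genes above background WT mouse 2 was the highest array in 26 (53.1%), against 21.2% of all genes above background. Klf3-/- mouse 3 was the lowest array in 19 (38.8%), against 16.6%. The mean of the dendritic cell and MHC class II markers had the same extremes, with 9.23 log2 units in Klf3-/- mouse 3 as the lowest array and 10.41 in WT mouse 2 as the highest. Klf3-/- mouse 2 was close to the lowest, at 9.25, and Cd209a of that list had the reverse extremes (9.85 and 8.04). The mean of the macrophage markers also had the reverse extremes, with 10.86 log2 units in Klf3-/- mouse 3 as the highest array and 9.07 in WT mouse 2 as the lowest. What part the mix of cells had in the pathway values was not tested.

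**Figure D4:**
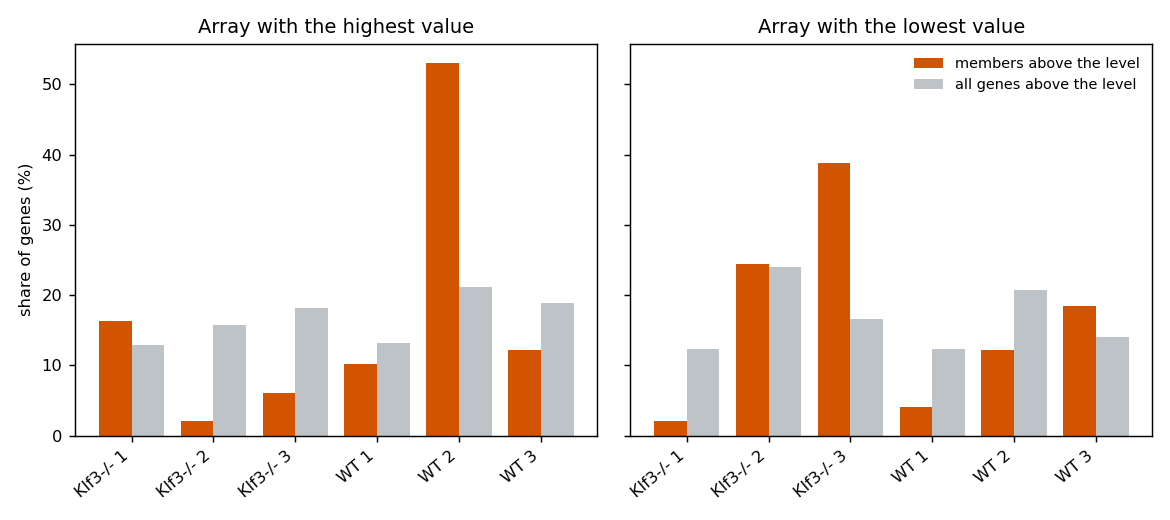
Share of genes (%) for which each array held the highest value (left panel) or the lowest (right panel), for the 49 pathway genes above background in orange and all 11115 such genes in grey. WT mouse 2 reaches 53.1% on the left and Klf3-/- mouse 3 38.8% on the right.

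Probe sets of 1 gene mostly had the same sign. Several above background read 17 of the genes, and in 13 all had the same sign. The 4 others were Ikbkg, Tnfrsf11a, Traf4 and Traf6, and the fold change of Traf6 was −0.03 as the mean of its probe sets. The lower values of Traf1, Nfkbie, Tnfaip3, Cd40, Birc3 and Tnfrsf1b each held in every such probe set.

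**Figure D5:**
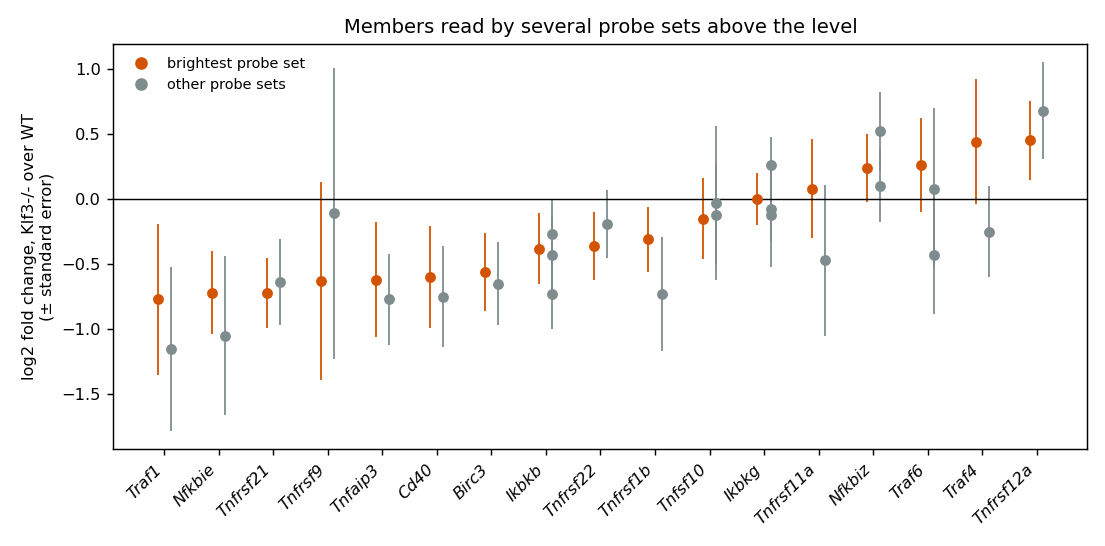
Log2 fold change, Klf3-/- over WT, with its standard error, of every probe set above background for the 17 genes with several, the brightest in orange and the rest in grey. The 4 probe sets of Ikbkb all sit below 0, while those of Traf4 and Traf6 lie on both sides.

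Other pathway genes lay outside the symbols used. Of 21 mediators between receptor and IKK, 17 were lower (81.0%) with a median of −0.14, against 55.2% of all genes. As deposited 7 were lower (33.3%) with a median of 0.10, against 30.5% of all genes. After normalisation 1 mediator lay under an unadjusted p of 0.05. It was Cflar, the caspase-8 regulator c-FLIP, with 8.66, 8.48 and 8.57 in Klf3-/- cells and 8.84, 9.24 and 9.08 in WT cells (−0.48, unadjusted p = 0.0353). With the replicate block its unadjusted p was 0.0612, and 0 mediators lay under 0.05. Of all genes 2.47% were lower at an unadjusted p under 0.05, and 3.5% with the block. Map3k14, the kinase NIK of the non-canonical branch, had −0.50, and the paracaspase Malt1 had −0.81, with Klf3-/- mouse 3 at 6.99 and the other 5 arrays between 8.74 and 9.16. Of 10 other family genes, the receptor Relt read 7.53, 7.36 and 7.13 in Klf3-/- cells and 7.96, 7.91 and 8.12 in WT cells. Its arrays did not overlap, and its fold change of −0.66 had an unadjusted p of 0.00983 (adjusted p = 0.854). Adam17, the protease that sheds TNF, had −0.33, and the ligand Eda had −0.14. Of 10 brakes 5 were lower and 5 higher, with the linear-ubiquitin deubiquitinase Otulin at −0.52 (unadjusted p = 0.0369, or 0.055 with the block), the deubiquitinase Otud7b at 0.49 and the ubiquitin ligase Itch at 0.43. With the block the 1 brake under an unadjusted p of 0.05 was Tnip1, which encodes an A20-binding protein (−0.48, unadjusted p = 0.0444).

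Textbook target genes of NF-κB ran both ways. Of 29 measured 20 were lower (69.0%), with a median of −0.14, against 55.2% of all genes. As deposited 12 were lower (41.4%), with a median of 0.02, against 30.5% of all genes. After normalisation 3 were lower and 3 higher at an unadjusted p under 0.05. The replicate block gave 6 lower and 4 higher, as Il12b, Vcam1 and Gadd45b joined the lower side and Sele the higher. Of all genes 2.47% were lower and 3.61% higher without the block, and 3.5% and 4.45% with it. Icam1, the adhesion molecule, read 10.22, 10.30 and 10.07 in Klf3-/- cells and 10.83, 11.23 and 10.80 in WT cells, with tight values in each genotype (unadjusted p = 0.00647). Without the block the chemokine gene Cxcl10 (−1.22) and Bcl2a1a, a survival gene of the Bcl2 family (−0.98), were the others on the lower side. Il6, the cytokine, read 7.80, 8.13 and 8.27 in Klf3-/- cells and 6.18, 6.63 and 7.02 in WT cells, a fold change of 1.45 (SE 0.26, unadjusted p = 0.000829, adjusted p = 0.663). Plau, the urokinase gene, had 1.19 and Lcn2, which encodes a siderophore-binding protein, had 2.12 (SE 0.79). The arrays of Lcn2 overlapped, with 6.68 in Klf3-/- mouse 2 against 7.02 in WT mouse 3. On this higher side the stromal markers moved too, with 5 of 11 higher at an unadjusted p under 0.05, against 3.61% of all genes. Their summed intensity was 16610 to 26640 in Klf3-/- cells and 10050 to 17140 in WT cells. Their part in the values of Il6 and Plau was not tested.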

How the data were processed

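RNA of the sorted cells of each mouse was amplified (Affymetrix 3′ IVT Pico Kit) and read on 1 array. The deposited values are linear intensities per probe set, which the authors made in Partek Genomics Suite with RMA according to a legend. No further steps are known here. After taking log2, arrays were quantile-normalised, and Klf3-/- was compared with WT in limma 3.58.1 (R 4.3.3), fitting genotype alone, with Benjamini-Hochberg adjustment over 45037 probe sets. The methods' ANOVA has a second factor that is not given, so a one-way form was an alternative. Probe sets took symbols from the platform annotation (28898 had 1 symbol, 551 several, 15588 none), and the brightest stood for each gene. The 58 members and all gene lists were chosen with earlier results of these data known. Named in each role were the 4 smallest p among genes above background in at least 1 genotype, the 2 brightest and a canonical core. Of each other list the 3 smallest p above background were named. Further genes were named after their values were seen. Arrays were paired by number because labels speak of litter-matched animals and because of correlations in these same data. Between arrays of 1 number, deviations about genotype means had r = 0.168, 0.2252 and 0.2073, against −0.1789 to −0.0128 between different numbers. Within a genotype these deviations cancel, so positive values for the same number force the others to be negative on average. The contrast is thus no independent evidence for pairing, and the block p-values and pair counts rest on that choice. On simulated data 0.0% of probe sets shifted by 1 log2 unit passed adjustment, 65.0% shifted by 2 and 84.5% shifted by 3. At an unadjusted p under 0.05 in limma the shares were 85.5%, 96.5% and 100.0%. Only a small chosen part of the probe sets was shifted, with independent normal errors. The shares after adjustment depend on that chosen part. The smallest exact two-sided permutation p for 3 against 3 mice is 0.1. The number of arrays limits precision. Figures were drawn with matplotlib 3.10.9.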

Additional observations from a re-analysis of the deposited data

How the results depend on the processing

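Passing an adjusted p of 0.05 was not reached by any probe set under any alternative run, and the smallest adjusted p of the 34 named genes among the 58 was 0.598. The 4 genes at an unadjusted p under 0.05 became 8 with the replicate block, 0 as deposited, 1 in the one-way ANOVA, 0 with adjustment, and 2 to 7 when 1 array was left out (2 without WT mouse 1, 7 without WT mouse 3). The median over the 58 genes was −0.24, or −0.0073 as deposited, where the median of all probe sets moved by 0.16. The 4 genes without overlap became 1 as deposited, 2 after centring each array on its median, and 6 to 19 with 1 array left out, since fewer arrays overlap less. As deposited, 719 of all 17097 genes were without overlap on the higher side and 54 on the lower side. For centring and left-out arrays no share of all genes is given, so those counts say nothing particular about these genes. Of these 34 genes 10 changed sign under at least 1 alternative, and Ikbkg, at 0.00, lay on either side of 0 (−0.09 to 0.15 with 1 array left out, 0.22 as deposited). As deposited Nfkbil1 was 0.04, Rela 0.02, Tnfsf13b 0.12 and Traf2 0.12. With 1 array left out, Fas lay between −0.68 and 0.04 (above 0 without WT mouse 2), Rel between −1.26 and 0.24 (above 0 without Klf3-/- mouse 3), Tnfrsf1a between −0.18 and 0.34 and Tnfsf13 between −0.07 and 0.28 (both below 0 without Klf3-/- mouse 3, at −0.18 and −0.05, and without WT mouse 2, at −0.09 and −0.07). Tnfsf13b lay between −0.39 and 0.12 (0.07 without Klf3-/- mouse 1, 0.12 without WT mouse 3), Traf2 between −0.33 and 0.21 (0.21 without Klf3-/- mouse 2, 0.08 without WT mouse 2), Traf4 between −0.03 and 0.68 (below 0 without Klf3-/- mouse 1) and Traf6 between −0.10 and 0.60 (below 0 without WT mouse 3). Traf6 was −0.03 as the mean of its probe sets. The causes were not tested. The kappa-B grouping and the count of lower genes were added after seeing the data.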
